A study of Mus musculus with 8 samples.

Results

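The complement genes described here are 32 genes of the classical, lectin, alternative and terminal pathways and their regulators, named by symbol and all found among the 52551 rows of the count files. Of the 32, 29 had enough reads to be tested. Messenger RNA was counted from its 3' ends (QuantSeq) in the liver of male C57BL/6 mice aged 6 weeks, with 4 libraries labelled PiZ/Chop-/- and 4 labelled PiZ. Both groups carry PiZ, a transgene for the Z form of human alpha-1 antitrypsin, which misfolds in the endoplasmic reticulum of hepatocytes. The PiZ/Chop-/- mice also lack Chop (gene Ddit3), which encodes a transcription factor of the endoplasmic reticulum stress response. So the question is what the loss of Chop changes in livers that already bear the Z protein. Wild-type livers were not analysed here. The labels give neither the promoter of the transgene nor the deleted part of Ddit3. They do not say whether every library is a separate mouse either, so a p-value here covers only the spread among these 8 libraries.

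Libraries held 1650260 to 3064385 counts. Ddit3 had 3 to 9 counts in the PiZ/Chop-/- libraries and 180 to 595 in the PiZ libraries, which fits the labels of all 8. The human SERPINA1 transgene stood at 554 to 712 CPM (counts scaled to library size) in PiZ/Chop-/- livers and at 950 to 1845 CPM in PiZ livers, without overlap, and its part in the values below was not tested. Albumin, Alb, the defining hepatocyte transcript, stood at 14520 ± 3075 CPM in PiZ/Chop-/- and 14650 ± 3538 CPM in PiZ livers (SD, n = 4 each). Within PiZ, libraries 1 and 4 correlated least with the others (mean r 0.931 and 0.914). PiZ/Chop-/- library 2 was about as far from its own group as PiZ library 1 (mean r 0.932).

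Complement is a set of plasma proteins that mark microbes and damaged cells and can pierce their membranes. The classical pathway starts when C1q binds antibody or other targets, the lectin pathway when mannose-binding lectins, ficolins or collectins bind sugars, and the alternative pathway amplifies the deposition of C3. All 3 lead to the membrane attack complex, in which the components from C5 to C8 assemble and C9 forms the pore. Hepatocytes make most of the plasma components, while the C1q chains, properdin and mouse ficolin A come mainly from macrophages, in the liver the Kupffer cells.

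Among the 29 tested genes, 1 changed: C9 rose in PiZ/Chop-/- livers (edgeR quasi-likelihood test, Benjamini-Hochberg adjusted p below 0.05 over all 8669 genes tested). That is 3.45% of them, beside 1.03% of all tested genes in either direction and 0.335% upward; no complement gene fell, beside 0.692% of all genes. At an unadjusted p below 0.05 there were 6 of the 29 (20.7%, beside 13.1% of all tested genes), with C1ra, C8a, C8g and C9 above 0 (6.29% of all tested genes) and C1qb and C1qc below (6.85%). The PiZ/Chop-/- and PiZ libraries did not overlap for 7 of the 29 (24.1%, beside 7.88% of all tested genes). These were C9, C8a, C8g, C1ra and Masp2, higher in PiZ/Chop-/- livers (3.66% of all tested genes), and C3 and C1qb, lower in them (4.22%). Log2 fold changes (PiZ/Chop-/- over PiZ throughout) were above 0 for 20 of the 29, or 69.0%, against 49.8% of all tested genes. With so few genes called, most of what follows is a description of levels and their spread.

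**Figure D1:**
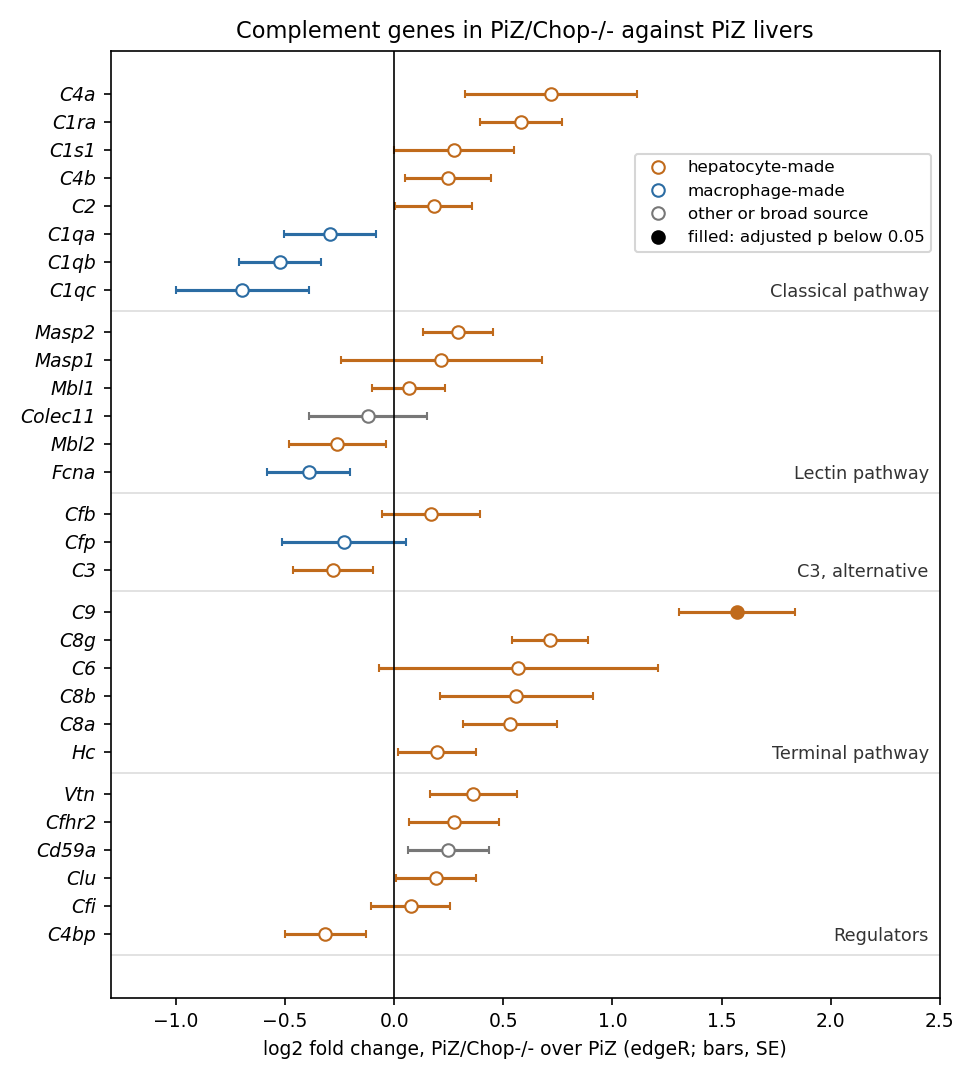
Log2 fold change of each tested complement gene, PiZ/Chop-/- over PiZ, with its SE, arranged by pathway and coloured by the cells that usually make it. C9, at 1.57, is the only filled point (adjusted p below 0.05); the 5 macrophage-made genes, in blue, lie between -0.70 and -0.23.

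The terminal pathway held the gene that changed. C9, whose copies join into the pore of the attack complex, had 306, 387, 220 and 240 CPM in PiZ/Chop-/- libraries 1 to 4, against 48.6, 112, 107 and 120 CPM in PiZ libraries 1 to 4. Every PiZ/Chop-/- library was thus above every PiZ library, with PiZ library 1 the lowest of the 8. The means were 288 ± 75.4 CPM in PiZ/Chop-/- and 96.8 ± 32.6 CPM in PiZ livers (SD, n = 4 each), a 2.97-fold difference. On the log2 scale this is 1.57 (SE 0.27, adjusted p = 0.00700 by edgeR with Benjamini-Hochberg adjustment). An exact two-sided permutation test of the mean log2 CPM gave p = 0.0286, the smallest that 4 against 4 allows. Every gene whose groups do not overlap (7.88% of all tested genes) gets this same p, so it adds no support beyond that separation. C9 stayed past the threshold in each of the 8 fits that left out 1 library (log2 fold change 1.36 to 1.70, adjusted p 0.0103 to 0.0352) and when PiZ libraries 1 and 4 were both dropped (1.40, adjusted p = 0.00734). That last fit keeps only PiZ libraries 2 and 3, which differed least of any pair of the 8 libraries, so its spread within PiZ is small.

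The 3 chains of C8, the component that C9 joins, had fold changes on the same side, none past the threshold. C8g, the small gamma chain, had 377, 378, 347 and 365 CPM in PiZ/Chop-/- libraries 1 to 4, against 186, 265, 231 and 212 CPM in PiZ libraries 1 to 4. The groups were well apart and the PiZ/Chop-/- libraries close together, yet C8g missed the threshold (log2 fold change 0.71, SE 0.17, adjusted p = 0.0690, edgeR). It passed with DESeq2 (0.72, adjusted p = 0.00250) and when genes of low counts were kept (0.73, adjusted p = 0.0355). C8a, the alpha chain, had 422, 458, 441 and 436 CPM in PiZ/Chop-/- libraries 1 to 4, against 176, 338, 330 and 372 CPM in PiZ libraries 1 to 4. Its groups did not overlap either, but the gap between PiZ libraries 2 to 4 and the PiZ/Chop-/- libraries was narrow (log2 fold change 0.53, SE 0.22, adjusted p = 0.312). Without PiZ library 1 the C8a value was 0.34.

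C8b, the beta chain, split the PiZ group instead. It had 1375, 1583, 893 and 1128 CPM in PiZ/Chop-/- libraries 1 to 4, against 511, 1286, 1169 and 411 CPM in PiZ libraries 1 to 4. PiZ libraries 2 and 3 lay within the PiZ/Chop-/- range and PiZ libraries 1 and 4 far below it. The log2 fold change of 0.56 (SE 0.35, adjusted p = 0.537) came to 0.021 without PiZ libraries 1 and 4. C6, which binds the first fragments of the attack complex, was also lowest in PiZ libraries 1 and 4, with 72.5, 132, 33.3 and 45.2 CPM in PiZ/Chop-/- libraries 1 to 4, against 11.1, 68.5, 76.9 and 30.9 CPM in PiZ libraries 1 to 4. PiZ library 1 was far below the PiZ/Chop-/- range and PiZ library 4 just below it. C6 was the most variable of the tested complement genes within PiZ, with a highest library 6.94 times the lowest, and its log2 fold change of 0.57 (SE 0.64, adjusted p = 0.766) was -0.044 without PiZ libraries 1 and 4 and 0.088 without PiZ/Chop-/- library 2. Hc, the mouse name of C5, whose cleavage starts the terminal pathway, had 411, 474, 423 and 396 CPM in PiZ/Chop-/- libraries 1 to 4, against 431, 316, 334 and 408 CPM in PiZ libraries 1 to 4. Its groups overlapped (log2 fold change 0.19, SE 0.18, adjusted p = 0.690). C7 had 1 count in all 8 libraries and was not tested.

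**Figure D2:**
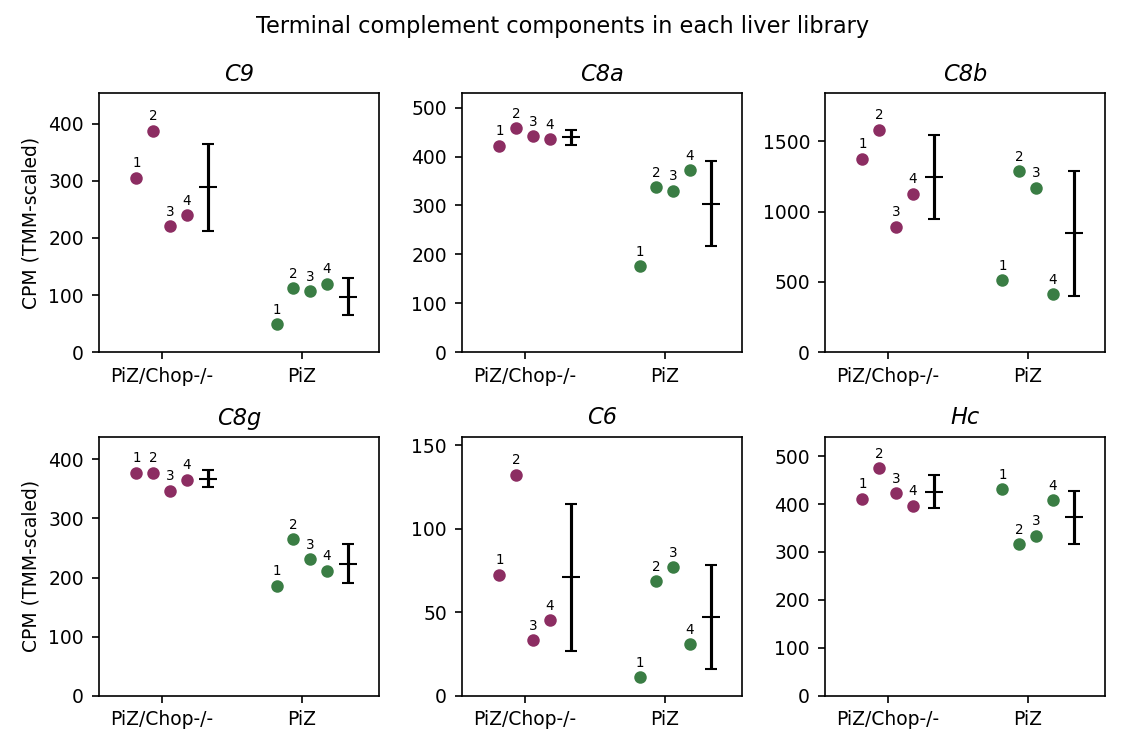
CPM of 6 terminal components in each library, PiZ/Chop-/- left of PiZ, numbered by library, with mean and SD beside the points. C9 libraries lie at 220 to 387 CPM in PiZ/Chop-/- and 48.6 to 120 CPM in PiZ livers; C8b is at 511 and 411 CPM in PiZ libraries 1 and 4, and C6 at 11.1 CPM in PiZ library 1.

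C9 can also be set against a C8 chain within a library, which removes any scaling between libraries. There were 0.725, 0.846, 0.499 and 0.551 C9 reads per C8a read in PiZ/Chop-/- libraries 1 to 4, against 0.276, 0.332, 0.324 and 0.322 in PiZ libraries 1 to 4. The PiZ ratios were close together, although both genes were low in PiZ library 1, and all lay under the PiZ/Chop-/- ratios. Set against C8b instead, the groups overlapped: there were 0.222, 0.245, 0.247 and 0.213 C9 reads per C8b read in PiZ/Chop-/- libraries 1 to 4, against 0.0951, 0.0872, 0.0913 and 0.291 in PiZ libraries 1 to 4. PiZ library 4, where C8b was lowest, lay above every PiZ/Chop-/- library. Both ratios were chosen after the values were seen and were not tested. C9 and C8a lie on different chromosomes: C9 on chromosome 15 (6445327 to 6498751, plus strand), and C8a on chromosome 4 (104815679 to 104876398, minus strand) beside C8b (104766317 to 104804548, plus strand; mm10, GENCODE M21). C6, with overlapping groups, is also on chromosome 15 (4727175 to 4814967, plus strand), as is C7 (4988762 to 5063740, minus strand).

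The stretches before the transcription starts of C9, C6, C8a, C8b and Hc are shown. The missing protein is a transcription factor of the C/EBP family, whose dimers with other C/EBP proteins are known to bind a core of TGCAAT. C8g, with 2 starts and no match in the 250 bases before either, is not printed. The sequences are from RefSeq (GRCm38.p6, the assembly also called mm10), each the 250 bases before the start, 5′ to 3′ on the gene's strand. Capitals mark matches, on either strand, to 1 of 7 motifs: TGCAAT, the C/EBP motif TTGCNNAA, the HNF1 core GTTAAT, the HNF4 motif CAAAGTCCA, the STAT motif TTCNNNGAA, the NF-kB motif GGACTTTCC and the interferon response motif GAAANNGAA.
C9 (chr15:6445096-6445345, plus strand): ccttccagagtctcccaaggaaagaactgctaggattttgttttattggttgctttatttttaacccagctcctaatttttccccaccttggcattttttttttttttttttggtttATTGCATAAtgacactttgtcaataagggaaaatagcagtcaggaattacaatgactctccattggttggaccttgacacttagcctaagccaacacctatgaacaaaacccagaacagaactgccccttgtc
C6 (chr15:4726960-4727209, plus strand): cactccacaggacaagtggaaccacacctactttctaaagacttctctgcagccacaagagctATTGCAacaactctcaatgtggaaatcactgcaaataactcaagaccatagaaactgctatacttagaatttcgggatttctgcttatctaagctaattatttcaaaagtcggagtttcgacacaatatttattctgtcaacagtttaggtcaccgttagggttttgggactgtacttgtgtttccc
C8a (chr4:104876399-104876648, minus strand): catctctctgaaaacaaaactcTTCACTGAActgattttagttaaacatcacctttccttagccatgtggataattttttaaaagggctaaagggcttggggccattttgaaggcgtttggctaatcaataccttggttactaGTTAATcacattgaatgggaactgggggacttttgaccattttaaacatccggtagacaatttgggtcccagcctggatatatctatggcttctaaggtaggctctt
C8b (chr4:104766067-104766316, plus strand): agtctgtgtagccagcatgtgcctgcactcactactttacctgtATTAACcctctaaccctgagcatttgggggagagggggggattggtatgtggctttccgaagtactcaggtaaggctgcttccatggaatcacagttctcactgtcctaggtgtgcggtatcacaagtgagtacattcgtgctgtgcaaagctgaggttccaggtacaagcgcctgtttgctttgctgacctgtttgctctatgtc
Hc (chr2:35061413-35061662, minus strand): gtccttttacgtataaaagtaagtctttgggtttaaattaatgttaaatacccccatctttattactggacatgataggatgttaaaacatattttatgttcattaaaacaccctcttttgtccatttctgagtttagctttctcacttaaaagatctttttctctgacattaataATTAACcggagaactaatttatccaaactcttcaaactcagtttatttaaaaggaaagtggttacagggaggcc
In C9 a TGCAAT match at -133 to -128 and a TTGCNNAA match at -132 to -125 overlap, and form the run in capitals. C6 holds a TGCAAT match at -187 to -182. In C8a, C8b and Hc the capitals are HNF1 cores, with a STAT match besides in C8a at -228 to -220. GENCODE M21 places the starts of C9, C6 and Hc a little upstream, inside these windows.

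RefSeq promoters of 300 bases (250 before and 50 after the start) were found for 24 of the 32 complement genes, 26 promoters in all. TGCAAT was in 3 of the 26 (C6, C9 and 1 of the 2 starts of C8g), beside 8.4% of all 32851 promoters, and TTGCNNAA in 4 of the 26 (C1ra, 1 of the 2 starts of C1s1, C3 and C9), beside 10.8%. The C8g match lies after the start, at 6 to 11, and belongs to a start inside the gene. The C8g start that GENCODE M21 gives had no match. The HNF1 core was in 10 of the 26 (C1ra, C4bp, C7, C8a, C8b, Cd55, Cfhr2, Cfp, Hc and Vtn), beside 7.1%. HNF1 is a known regulator of hepatocyte genes, but Cfp is macrophage-made, and C7 and Cd55 had too few counts to be tested. The STAT motif was in 7 of 26 (8.3% of all) and the interferon motif in 4 of 26 (8.56%). The HNF4 and NF-kB motifs were in none of the 26 (0.475% and 0.344% of all promoters). Matches describe these letters only and were not tested as binding sites.

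In the classical pathway the chains of C1q stood on the low side in PiZ/Chop-/- livers and their partner proteases on the high side, none past the threshold. C1qa, the A chain, had 300, 210, 223 and 192 CPM in PiZ/Chop-/- libraries 1 to 4, against 255, 393, 261 and 226 CPM in PiZ libraries 1 to 4. These overlapped (log2 fold change -0.29, SE 0.21, adjusted p = 0.592), and the value was -0.093 without PiZ library 2, the highest of the 8. C1qb, the B chain, had 91.5, 69.6, 63.6 and 91.3 CPM in PiZ/Chop-/- libraries 1 to 4, against 106, 132, 105 and 113 CPM in PiZ libraries 1 to 4. All 4 PiZ/Chop-/- values were below all 4 PiZ values (-0.52, SE 0.19, adjusted p = 0.25). C1qc, the C chain, had 19.98, 24.1, 28.8 and 32.1 CPM in PiZ/Chop-/- libraries 1 to 4, against 29.5, 31.6, 32.8 and 76.4 CPM in PiZ libraries 1 to 4. PiZ library 4 stood alone: the log2 fold change of -0.70 (SE 0.30, adjusted p = 0.343) was -0.24 without it.

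C1ra encodes the protease C1r, which C1q activates. It had 195, 171, 154 and 171 CPM in PiZ/Chop-/- libraries 1 to 4, against 109, 131, 136 and 86.4 CPM in PiZ libraries 1 to 4. Its groups did not overlap (log2 fold change 0.58, SE 0.19, adjusted p = 0.190), and the value was 0.38 without PiZ libraries 1 and 4. C1s1, the next protease, averaged 37.5 ± 5.33 CPM in PiZ/Chop-/- and 31.0 ± 13.2 CPM in PiZ livers (SD, n = 4 each; 0.28, adjusted p = 0.715). Their paralogs C1rb and C1s2 had 1 and 0 counts over all libraries.

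C4b, the precursor of component C4 that C1s cleaves, had 788, 683, 924 and 865 CPM in PiZ/Chop-/- libraries 1 to 4, against 851, 615, 549 and 738 CPM in PiZ libraries 1 to 4. The groups overlapped (log2 fold change 0.25, SE 0.20, adjusted p = 0.632). C4a, its near-identical neighbour on chromosome 17, averaged 13.4 ± 5.25 CPM in PiZ/Chop-/- and 8.13 ± 3.98 CPM in PiZ livers (SD, n = 4 each; 0.72, SE 0.39, adjusted p = 0.458), and reads may have been shared or dropped between them. C2, cleaved to give the catalytic part of the C3 convertase, averaged 106 ± 15.4 CPM in PiZ/Chop-/- and 93.9 ± 9.02 CPM in PiZ livers (SD, n = 4 each; 0.18, adjusted p = 0.710).

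The lectin pathway held no change past the threshold. Masp2, the protease that cleaves C4 and C2 for the lectins, had 172, 149, 159 and 153 CPM in PiZ/Chop-/- libraries 1 to 4, against 140, 127, 120 and 131 CPM in PiZ libraries 1 to 4. The groups were narrowly apart (log2 fold change 0.29, SE 0.16, adjusted p = 0.463). Fcna, ficolin A, had 71.1, 93.7, 82.4 and 115 CPM in PiZ/Chop-/- libraries 1 to 4, against 109, 139, 114 and 113 CPM in PiZ libraries 1 to 4, so that only PiZ/Chop-/- library 4 reached the PiZ range (-0.39, SE 0.19, adjusted p = 0.391). Mbl2, a mannose-binding lectin, had 398, 377, 435 and 351 CPM in PiZ/Chop-/- libraries 1 to 4, against 383, 364, 413 and 710 CPM in PiZ libraries 1 to 4. PiZ library 4 again stood alone, and the log2 fold change of -0.26 (adjusted p = 0.657) was 0.031 without it. The other mannose-binding lectin, Mbl1, averaged 247 ± 12.0 CPM in PiZ/Chop-/- and 236 ± 29.2 CPM in PiZ livers (SD, n = 4 each; 0.066, adjusted p = 0.909, and -0.015 when scaled by library size alone). Masp1, which activates Masp2, had 77 counts in all and lay at 2.98 to 7.90 CPM in PiZ/Chop-/- and 1.85 to 5.34 CPM in PiZ livers (0.22, adjusted p = 0.888). Colec11, collectin 11, lay at 26.8 to 48.0 CPM in PiZ/Chop-/- and 22.8 to 55.4 CPM in PiZ livers (-0.12, adjusted p = 0.893).

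C3, on which all pathways converge, had the most counts of the set. It had 5385, 5957, 6281 and 6969 CPM in PiZ/Chop-/- libraries 1 to 4, against 8195, 7311, 7241 and 7129 CPM in PiZ libraries 1 to 4. The groups did not overlap, but PiZ/Chop-/- library 4 and PiZ library 4 were nearly level (log2 fold change -0.28, SE 0.18, adjusted p = 0.552). C3 took 40.8 ± 2.41% of the reads of the 32 genes in PiZ/Chop-/- and 50.0 ± 3.49% in PiZ livers (SD, n = 4 each). The 32 genes together took 1.5 ± 0.0835% of counts in PiZ/Chop-/- and 1.49 ± 0.0499% in PiZ livers, so the summed level was nearly the same while its make-up differed.

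Cfb, factor B of the alternative pathway, had 1102, 1155, 1011 and 1373 CPM in PiZ/Chop-/- libraries 1 to 4, against 969, 1411, 1087 and 663 CPM in PiZ libraries 1 to 4. These overlapped (log2 fold change 0.17, SE 0.23, adjusted p = 0.797), and the value was -0.11 without PiZ libraries 1 and 4. Cfp, properdin, which stabilises the alternative convertase, had 10.7, 20.1, 18.4 and 24.7 CPM in PiZ/Chop-/- libraries 1 to 4, against 14.8, 27.2, 23.2 and 20.9 CPM in PiZ libraries 1 to 4, with overlap (-0.23, SE 0.29, adjusted p = 0.783). Dropping PiZ/Chop-/- library 1, its lowest, gave -0.036. Cfd, the protease that activates factor B, is made mainly by fat. It had 5 counts, all in PiZ/Chop-/- libraries 3 and 4, and was not tested; of the fat cell markers none was tested, and Adipoq, Lep and Retn had 0 counts.

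No regulator passed the threshold. Vtn, vitronectin, which binds terminal complexes in plasma, had 821, 933, 1094 and 1026 CPM in PiZ/Chop-/- libraries 1 to 4, against 691, 696, 618 and 1006 CPM in PiZ libraries 1 to 4. PiZ library 4 fell within the PiZ/Chop-/- range (log2 fold change 0.36, SE 0.20, adjusted p = 0.463). C4bp, a cofactor in the breakdown of C4, had 141, 159, 182 and 194 CPM in PiZ/Chop-/- libraries 1 to 4, against 181, 198, 199 and 264 CPM in PiZ libraries 1 to 4, with overlap, and was the 1 tested regulator below 0 (-0.32, SE 0.18, adjusted p = 0.492). Cd59a, which stops C9 from polymerising on the cell's own membrane, had 123, 132, 151 and 144 CPM in PiZ/Chop-/- libraries 1 to 4, against 152, 104, 99.0 and 109 CPM in PiZ libraries 1 to 4. PiZ library 1 held the highest value of all 8 (0.25, SE 0.19, adjusted p = 0.606). Cfi, which cleaves C3 and C4 fragments, lay at 112 to 143 CPM in PiZ/Chop-/- and 99.6 to 150 CPM in PiZ livers (0.075, adjusted p = 0.902, and -0.0044 when scaled by library size alone). Clu, clusterin, another binder of terminal complexes, lay at 893 to 1134 CPM in PiZ/Chop-/- and 782 to 1008 CPM in PiZ livers (0.19, adjusted p = 0.702). Cfhr2, a relative of factor H with close paralogs, lay at 36.7 to 48.0 CPM in PiZ/Chop-/- and 28.2 to 42.2 CPM in PiZ livers (0.27, adjusted p = 0.608). Cd55, which speeds the decay of convertases on cells, had 63 counts in all and was not tested.

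**Figure D3:**
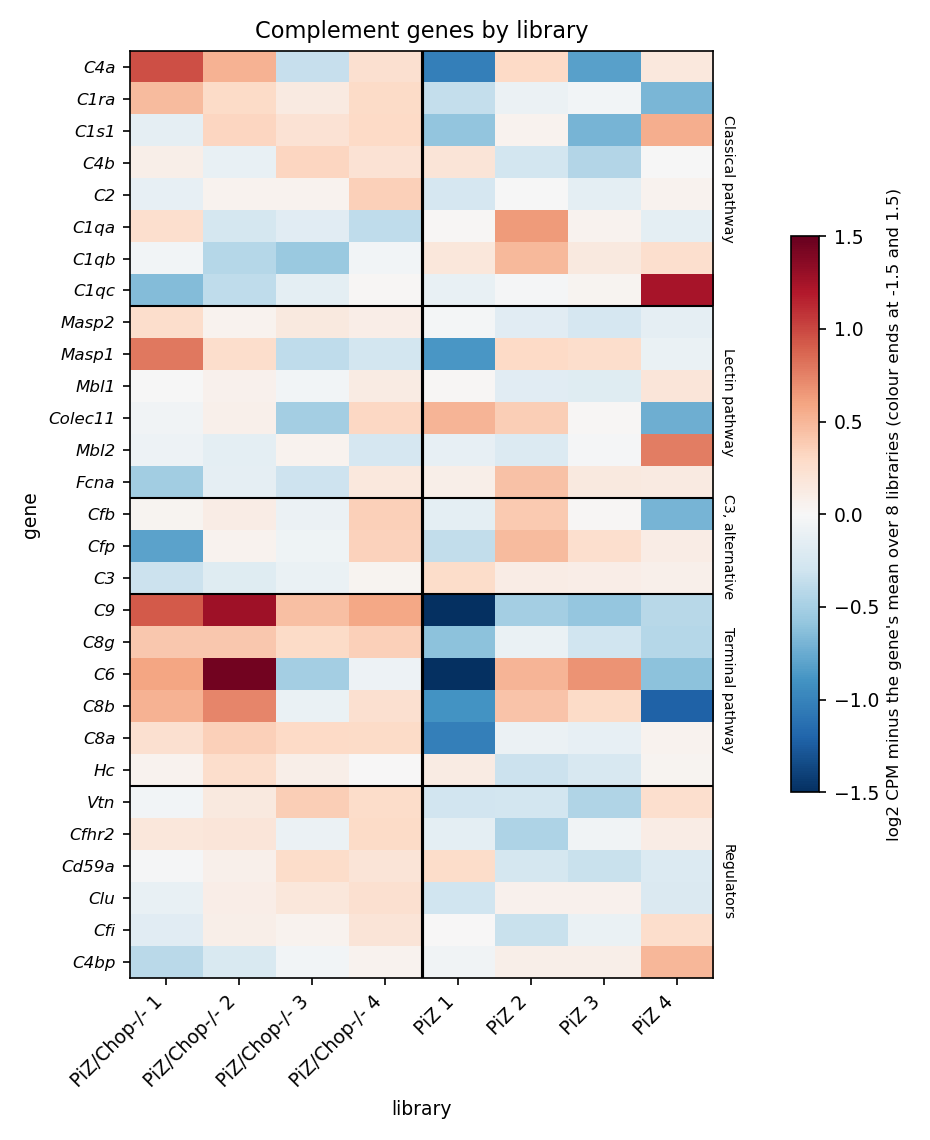
Log2 CPM of each tested complement gene in each library, minus the gene's mean over the 8 libraries, with PiZ/Chop-/- libraries left of PiZ libraries and genes grouped by pathway. C9 is above its mean in the 4 PiZ/Chop-/- libraries and below it in the 4 PiZ libraries; PiZ library 1 is lowest for C9, C6 and C8a, and PiZ library 4 highest for C1qc and Mbl2.

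Sorted by the cells that usually make them, the 2 sources lay on opposite sides of 0. All 5 macrophage-made genes (C1qa, C1qb, C1qc, Cfp and Fcna) had log2 fold changes below 0, with a median of -0.39, and 19 of 22 hepatocyte-made genes were above 0, with a median of 0.26; over all tested genes 50.2% were below 0 and the median was -0.0016. Of these genes only C9 passed the threshold. Scaled by library size alone, and again when PiZ libraries 1 and 4 were dropped, 17 of the 22 were above 0 and the 5 macrophage-made genes stayed below. The difference between the sources was not tested.

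Summed over the 5 macrophage-made genes, the level was 493, 417, 417 and 455 CPM in PiZ/Chop-/- libraries 1 to 4, against 514, 723, 535 and 549 CPM in PiZ libraries 1 to 4. The sums did not overlap. Most markers of Kupffer cells and macrophages that are not complement genes lay on the same side. The 20 listed summed to 860, 802, 875 and 976 CPM in PiZ/Chop-/- libraries 1 to 4, against 1001, 1403, 1034 and 1408 CPM in PiZ libraries 1 to 4. Cd5l alone averaged 317 ± 54.7 CPM in PiZ/Chop-/- and 520 ± 147 CPM in PiZ livers (SD, n = 4 each), so this 1 gene carries most of the difference between the sums. Timd4 (0.22) and Ctsc (0.060) were the 2 tested markers above 0. Cd14 had 31 counts and was not tested. Of 19 tested markers 17 were below 0 (median log2 fold change -0.33), none past the threshold, with Cd5l, a protein secreted by macrophages, at -0.71 (adjusted p = 0.179) and Clec4f, a Kupffer cell receptor, at -0.067 (adjusted p = 0.930). The C1q chains came to 38.5 ± 6.58% of the marker sum in PiZ/Chop-/- and 36.7 ± 4.81% in PiZ livers (SD, n = 4 each), so C1q and the markers kept about the same proportion. No macrophage-made complement gene passed the threshold either, so a difference in macrophages was not shown. Were there one, fewer macrophages and less RNA per macrophage could not be told apart in whole liver.

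Hepatocyte markers showed no such side, with 5 of 11 tested above 0 and a median of -0.013. All 22 hepatocyte-made complement genes summed to 13400, 14630, 14230 and 15480 CPM in PiZ/Chop-/- libraries 1 to 4, against 14180, 14740, 14100 and 13740 CPM in PiZ libraries 1 to 4. These sums overlapped, and C3, which lay on the other side, made up a large part of them. Without C3, a choice made after its values were seen, they summed to 8015, 8673, 7949 and 8511 CPM in PiZ/Chop-/- libraries 1 to 4, against 5985, 7429, 6859 and 6611 CPM in PiZ libraries 1 to 4, without overlap. The terminal genes carry much of that difference. With C7 and its 1 count included, they summed to 2963, 3413, 2357 and 2610 CPM in PiZ/Chop-/- libraries 1 to 4. In PiZ libraries 1 to 4 they summed to 1364, 2386, 2248 and 1552 CPM. The separation without C3 is thus not a like shift of all hepatocyte-made genes. Markers of stellate cells had 7 of 7 tested below 0 (median -0.39) and summed to 252 to 412 CPM in PiZ/Chop-/- and 392 to 481 CPM in PiZ livers. Those of endothelial cells had 9 of 10 tested above 0 (median 0.33) and summed to 442 to 453 CPM in PiZ/Chop-/- and 290 to 390 CPM in PiZ livers, without overlap. None of either list passed the threshold. Lymphocyte markers summed to 6.04 to 11.5 CPM in PiZ/Chop-/- and 12.9 to 15.7 CPM in PiZ livers. Of the 9 listed only Ptprc was tested (-0.53, adjusted p = 0.514). At 4.18 to 7.94 CPM in PiZ/Chop-/- and 8.68 to 10.2 CPM in PiZ livers, it made up most of these sums. The other lymphocyte markers had 1 to 21 counts each in all, so the sums say little about them. Neutrophil markers summed to 4.18 to 89.1 CPM in PiZ/Chop-/- (highest in library 2) and 8.54 to 32.6 CPM in PiZ livers. Of 14 tested acute-phase genes, many of them induced with C3 and Cfb in inflammation, all were below 0 (median -0.35), although their sums overlapped, at 17620 to 20920 CPM in PiZ/Chop-/- and 17590 to 32380 CPM in PiZ livers. Lcn2, lipocalin 2, was the 1 of the 14 past the threshold (-2.30, adjusted p = 0.0113), beside 0.692% of all tested genes called lower. The part of these cells and of the acute-phase response in the complement values was not tested.

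**Figure D4:**
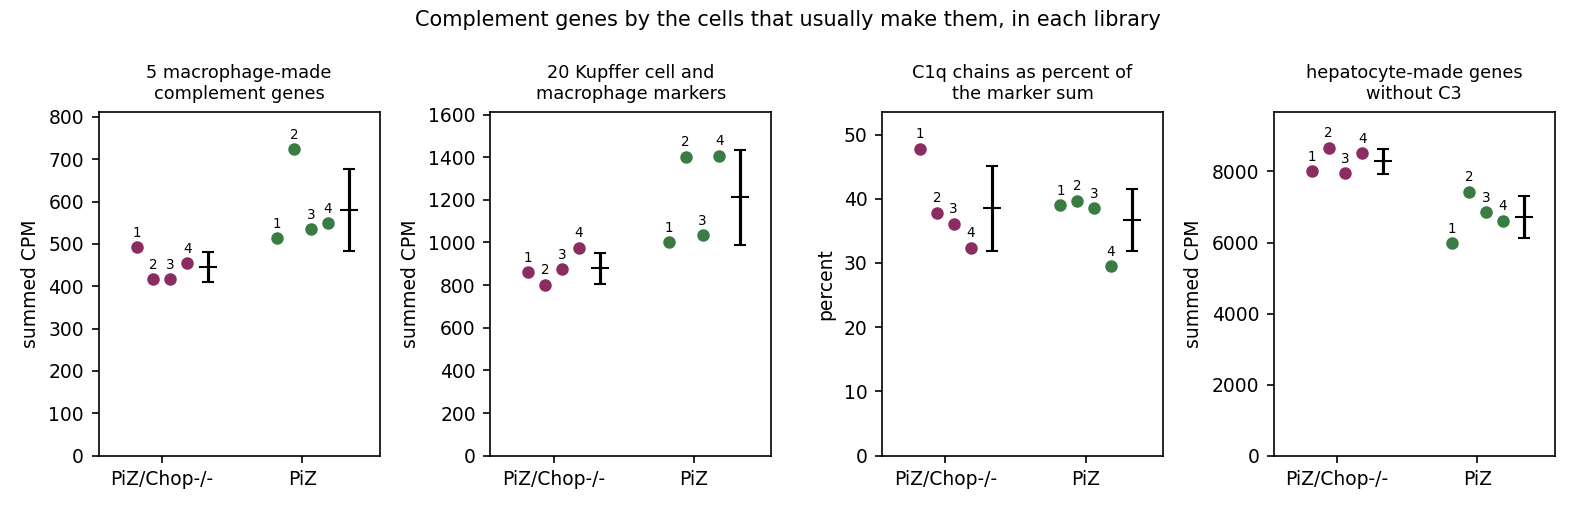
Summed CPM of macrophage-made complement genes, of Kupffer cell and macrophage markers and of hepatocyte-made complement genes without C3, and the C1q chains as percent of the marker sum, in each library with mean and SD, PiZ/Chop-/- left of PiZ. The macrophage-made sums reach 493 CPM in PiZ/Chop-/- livers and start at 514 CPM in PiZ livers; the hepatocyte-made sums are apart without C3 (from 7949 CPM in PiZ/Chop-/-, up to 7429 CPM in PiZ) but overlap with it.

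Of 34 other genes of the complement system and its surroundings (receptors, inhibitors, pentraxins and proteases shared with clotting), 17 were tested. Of these, 9 were above 0 and 8 below. Beside 1.03% of all tested genes, 1 of the 17 changed. This was Apcs, serum amyloid P, a pentraxin that binds C1q and C4bp. It had 91.1, 93.7, 118 and 124 CPM in PiZ/Chop-/- libraries 1 to 4, against 477, 224, 231 and 372 CPM in PiZ libraries 1 to 4. Every PiZ/Chop-/- library was below every PiZ library, and Apcs fell (log2 fold change -1.61, SE 0.25, adjusted p = 0.00327, edgeR). The other pentraxin tested, Crp, had -0.088 (adjusted p = 0.886). Next by p came Susd4, a membrane inhibitor of complement, at 15.0 ± 1.96 CPM in PiZ/Chop-/- and 6.39 ± 2.84 CPM in PiZ livers (SD, n = 4 each; 1.19, adjusted p = 0.135). Cd93, once held to be a C1q receptor, had -0.72 (adjusted p = 0.315). Vsig4, the complement receptor of Kupffer cells, had -0.45 (adjusted p = 0.338), on the side of the C1q chains. Serping1, the C1 inhibitor, stood at 503 ± 50.1 CPM in PiZ/Chop-/- and 382 ± 54.0 CPM in PiZ livers (SD, n = 4 each; 0.40, adjusted p = 0.363). Of the 17 tested, Serping1, Susd4 and Cpn2 were higher without overlap, beside 3.66% of all tested genes. Apcs was lower without overlap, beside 4.22%. Cpn2 lay at 198 to 229 CPM in PiZ/Chop-/- and 145 to 178 CPM in PiZ livers (0.34, adjusted p = 0.385).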

How the data were processed

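Per the file headers, the authors deposited 1 file of raw counts for each library. Per the labels' protocols, total RNA of each sample was made into QuantSeq 3' libraries and read from one end. The submitters' processing notes name STAR, HTSeq and mm10. Their versions, the annotation, the strand setting and the treatment of shared reads and of PCR duplicates were not given in these sources. Each QuantSeq read comes from near a transcript's 3' end, so no length correction was made. Groups and replicate numbers come from the sample titles.

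Symbols and positions came from GENCODE M21 (52403 of 52550 Ensembl IDs found). Genes were filtered with filterByExpr (minimum count 10), scaled by TMM and tested with edgeR 4.0.16 in R 4.3.3 (glmQLFit, robust; glmQLFTest; no covariate; all 8 libraries), with Benjamini-Hochberg adjustment over 8669 genes and a threshold of 0.05. SE is the log2 fold change divided by the root of F. CPM uses TMM-scaled sizes. The permutation test was run only for the gene past the threshold, with log2(CPM + 1) and all 70 assignments. Counting error alone makes a gene with 0 reads compatible with up to 3 counts, 0.965 to 1.85 CPM. No pair of libraries differed by as little as counting noise, so none was treated as deposited more than once; this does not show that they came from separate mice.

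The members and lists were chosen with earlier results of these data known. All 32 genes are named. Values by library are given for the gene past the threshold, the 3 of lowest p in each pathway and 9 genes fixed by name. C6 is given by library beyond that rule. Of the other complement genes, those past the threshold and the 3 of lowest p are named. Vsig4, Serping1, Cpn2, Crp, marker and acute-phase genes beyond that rule were chosen after their values were seen. Alternatives were 3 other scalings, the 20 most abundant genes left out, DESeq2 1.42.0, limma-voom (limma 3.58.1), no filter, a stricter filter (5 CPM in at least 4 libraries), a non-robust fit, a block of the replicate number, an adjusted p of 0.01, each library left out and PiZ libraries 1 and 4 left out.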

Additional observations from a re-analysis of the deposited data

Results flagged for a closer look

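In 4 of 58 groups of 4 libraries (29 tested genes in PiZ/Chop-/- and in PiZ), 1 library lay far from the other 3; chance alone flags about 1 group in 20. C1qc was at 76.4 CPM in PiZ library 4, with the other PiZ libraries at 29.5 to 32.8 CPM, and Mbl2 at 710 CPM in the same library, with the others at 364 to 413 CPM. C3 was at 8195 CPM in PiZ library 1, with the others at 7129 to 7311 CPM, and Fcna at 139 CPM in PiZ library 2, with the others at 109 to 114 CPM. The C1qc and Mbl2 log2 fold changes without PiZ library 4 are -0.24 and 0.031. All 4 values are in the PiZ group, and none belongs to a gene past the threshold.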

How the results depend on the processing

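C9 was called under every alternative run, and the count of complement genes called was 1 in all but 2 of them: DESeq2 and the fit with no filter on low counts called 2 each, both higher, C9 and C8g. The cause was not tested. Over all genes, the number called was 208 with DESeq2, 357 with no filter, 39 at an adjusted p of 0.01 and 46 to 169 with 1 library left out. Those higher in PiZ/Chop-/- were 19 with library size only, 94 with DESeq2, 18 with limma-voom, 175 with no filter, 9 at the stricter p and 12 to 67 with 1 library left out; those lower were 114, 182, 30 and 32 to 102 (DESeq2, no filter, stricter p, 1 library left out). Signs turned for Mbl1 (-0.015) and Cfi (-0.0044) with library size only; Masp1 (-0.11), Mbl2 (0.0090), Cfb (-0.11) and C6 (-0.044) without PiZ libraries 1 and 4; and, with 1 library left out, Colec11 (-0.31 to 0.036), Mbl2 (-0.36 to 0.031) and Cfi (-0.013 to 0.20). The medians ran from 0.18 to 0.31 for hepatocyte-made and from -0.52 to -0.30 for macrophage-made genes over all alternatives. Same-numbered libraries did not deviate together (r of -0.051 to 0.049), so the numbers were not taken as pairs; with the replicate block 76 genes were called, of complement genes C9 alone (1.60, adjusted p = 0.0192). Masp1 had too few counts to be tested in 3 fits with a library left out. Low depth limits C7, Cfd, Cd55, Masp1 and C4a.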
